A study of Mus musculus with 6 samples.

Results

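The 10 genes described here encode transcription factors of the cerebellar granule cell (GC) lineage. They are Atoh1, Neurod1, Neurod2, Pax6, Barhl1, Zic1, Zic2, Nfia, Nfib and Nfix, chosen by name for their place in the lineage, and they make up 10 of the 53421 rows in the count table. All 10 were found by gene ID in the GRCm38 annotation, and all 10 passed the filter on low counts that left 17214 genes for testing. RNA was sequenced from GCs of C57BL/6 mouse cerebellum, labelled postnatal day 8, which had been dissociated, cultured and infected with lentivirus. In the shYthdf2 group (3 libraries) the virus carried a short hairpin RNA against Ythdf2 (hairpin shYthdf2#3, as the library names are read), a reader of the mRNA modification m6A, and in the shCtrl group (3 libraries) it carried a control hairpin. By the study's methods infected cultures were selected with puromycin, which the controls share, and the methods take the pups at postnatal day 6 to 8. The knockdown rests on 1 hairpin, and the methods call the 3 libraries of a group biological replicates without saying which animals or cultures gave each, so p-values measure the spread between these libraries.

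GCs arise from the rhombic lip, divide in the external granule layer, leave the cell cycle and migrate inward while they grow parallel fibers. Atoh1 specifies the lineage and keeps progenitors dividing, and it is switched off as they differentiate. Barhl1 lies downstream of Atoh1, NeuroD proteins and Pax6 drive differentiation, ZIC proteins act in progenitors and maturing neurons, and nuclear factor I (NFI) proteins time the late steps. Most of these genes are also used by other cells, for example the NFI genes in astroglia and Pax6 and the ZIC genes in other cerebellar cells.

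The sample titles and genotype labels (Wildtype, KDYthdf2) go against the library names on which 3 libraries are the knockdown. The library names were followed, and if the titles and genotypes were right every direction given here would turn round. Ythdf2 had 500, 401 and 500 normalized counts in the shYthdf2 libraries named 1, 2 and 4 and 617, 839 and 627 in the shCtrl libraries (log2 fold change -0.57, standard error (SE) 0.16, adjusted p = 0.125 in edgeR's quasi-likelihood test). Libraries held 17246821 to 21546595 counts. Replicates 1 and 4 of a group were close to each other (chi-square per degree of freedom 3.34 for shYthdf2 and 4.64 for shCtrl). Replicate 2 stood apart from them (32.9 to 54.8), and the replicate 2 libraries were nearer each other (22.1) than their own groups. On the main axis of spread between libraries (first principal component, 48% of the variance), replicate 2 of shCtrl (-18.5) lay beside the shYthdf2 libraries (-28.7 to -20.4). Replicates 1 and 4 of shCtrl lay apart from all of these (43.6 and 44.6). Results are therefore also given without replicate 2. The check of the cell type against its markers is given after the members.

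The factors were first ordered by their level in the shCtrl libraries, as counts per kilobase of annotated exon in a library scaled to 1000000 counts, written RPKM. Zic1 came first at 575 ± 12.4 (SD, n = 3) and ranked 19th of 16613 tested genes with a known length. Neurod1 followed at 365 ± 6.66 (SD, n = 3), Zic2 at 343 ± 5.86 (SD, n = 3) and Neurod2 at 231 ± 28.5 (SD, n = 3). These 4 genes, with Nfix at 158 ± 5.42 and Barhl1 at 137 ± 18.6, were among the 200 genes with the highest level per length. Pax6 had a level of 50 ± 5.53, Nfib of 31.4 ± 3.52 and Nfia of 17.3 ± 2.78 (SD, n = 3 each). Atoh1 was at 0.382 ± 0.0632 and ranked 14720th, near the lower limit of what was tested. The ranges of neighbours in this order did not overlap over the 3 shCtrl libraries, though Nfix (152 to 163) and Barhl1 (117 to 152) nearly met. In the shYthdf2 libraries Zic2 (338 to 348) stood above Neurod1 (287 to 299), and Nfib (19.1 to 26.5) overlapped Nfia (19.8 to 23.2). The length counts every annotated exon of a gene, 11694 bases over 26 transcripts for Pax6 and 14957 bases over 12 transcripts for Nfib, which lowers the level of genes with many alternative exons.

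**Figure D1:**
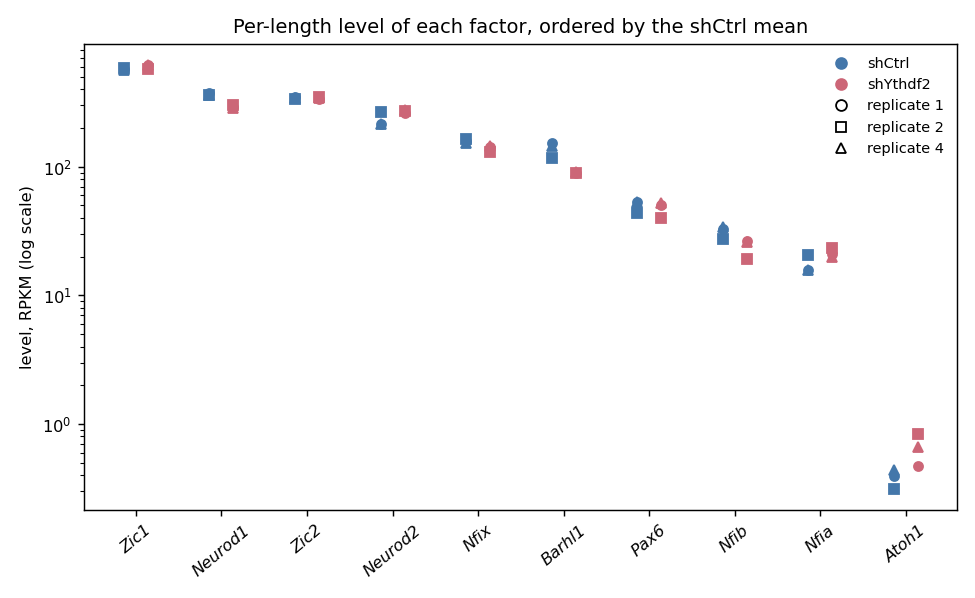
Level of each factor in RPKM (log axis) in each of the 6 libraries, with shCtrl in blue, shYthdf2 in red and the symbol giving the replicate. Zic1 is highest at 575 in shCtrl and Atoh1 lowest at 0.382, and Nfib and Nfia draw together in the shYthdf2 libraries.

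No member passed an adjusted p-value of 0.05 in edgeR's test of shYthdf2 against shCtrl (0 of 10, where 0.604% of the 17214 genes tested passed). Before adjustment, a p under 0.05 was reached by 3 of the 10 (30%), Barhl1, Neurod1 and Nfib, all of them lower in the shYthdf2 libraries, against 20.1% of all genes tested (10.6% lower and 9.50% higher). DESeq2 called 2 members, Barhl1 and Neurod1, where it called 7.67% of all genes (4.54% lower and 3.13% higher), and limma-voom called 0, where it called 0.139% of all, and each put 3 members at a raw p below 0.05, against 19.8% of all genes with DESeq2 and 20.5% with limma-voom. A further edgeR fit used the replicate number as a block, with the pairing taken from the numbers alone. With that block 0 members passed, against 1.35% of all genes. The raw p of 5 members (50%) was below 0.05, against 31.6% of all genes. Non-overlapping groups were seen for 5 of 10 members (50%), against 26.0% of all genes tested. Of these 5, 4 were lower in the shYthdf2 libraries (13.4% of all genes were) and 1 was higher (12.6% of all genes were). The median log2 fold change of the 10 was -0.04, against 0.01 over all genes, and the median absolute value was 0.26 against 0.25. Estimates of the members went both ways, 4 higher and 6 lower with shYthdf2, and a shift of the members as a set was not tested. Their values are given by role.

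**Figure D2:**
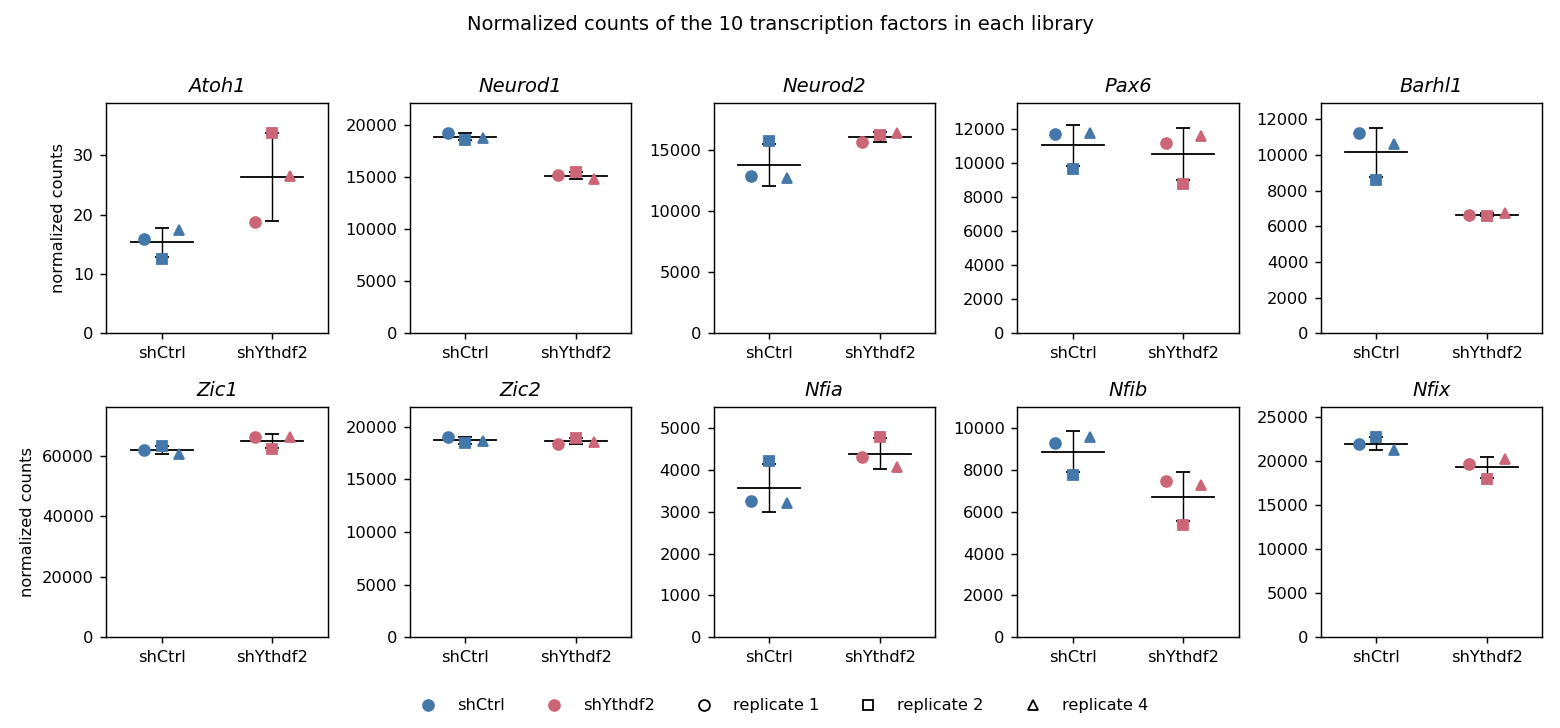
Normalized counts (vertical axes, from 0) of the 10 factors in the 3 shCtrl libraries (blue) and the 3 shYthdf2 libraries (red), with the symbol giving the replicate, the line the group mean and the bar 1 SD. The groups do not overlap for Atoh1, Neurod1, Barhl1, Nfib and Nfix, and Zic2 has nearly the same mean in both groups (18707 and 18651).

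Atoh1 (ENSMUSG00000073043, chromosome 6 from 64729125 to 64731245, plus strand) encodes the bHLH factor of granule progenitors. Its normalized counts were 18.8, 33.8 and 26.5 with shYthdf2 (replicates 1, 2 and 4) and 15.9, 12.6 and 17.5 with shCtrl. No shCtrl library reached the lowest of the knockdown, the closest being replicate 1 of shYthdf2 against replicate 4 of shCtrl. Its log2 fold change came to 0.78 (SE 0.34, adjusted p = 0.255 in edgeR's test), with a 95% interval from -0.01 to 1.58. The raw counts were 13 to 35 in a library, the fewest of any member, and the difference was 0.23, 1.39 and 0.58 on the log2 scale within replicates 1, 2 and 4.

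Barhl1 (ENSMUSG00000026805, chromosome 2 from 28907679 to 28916668, minus strand), a homeodomain factor that GC progenitors and migrating GCs need, had the lowest p of the members. It had 6619, 6594 and 6760 normalized counts with shYthdf2 (replicates 1, 2 and 4) and 11245, 8614 and 10608 with shCtrl. The shYthdf2 libraries were close to one another and below every shCtrl library, and among the latter replicate 2 was lowest. The means were 6658 ± 89.6 and 10156 ± 1373 (SD, n = 3 each), so that 65.6% of the shCtrl level was measured (p = 0.1 by a two-sided exact permutation, which 3 against 3 cannot go below). On the log2 scale the fold change was -0.61 (SE 0.12, 95% interval -0.89 to -0.33, adjusted p = 0.0651 in edgeR's test). Its adjusted p was 0.0519 with the replicate block, 0.000873 with DESeq2, 0.0213 without the filter on low counts and 0.00273 without replicate 2 of shCtrl, over a range of 4.17e-10 to 0.306 in the 14 alternatives. The absolute change of Barhl1 exceeded that of 83.3% of the genes tested.

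Barhl2, the other BarH-like gene, stood on the list of further lineage factors, and its estimate was near 0. Its normalized counts were 2353, 2257 and 2362 with shYthdf2 and 2734, 2006 and 2556 with shCtrl (replicates 1, 2 and 4). The groups overlapped, and the log2 fold change was -0.07 (SE 0.13, 95% interval -0.36 to 0.23, adjusted p = 0.808 in edgeR's test). The ratio of the 2 genes within a library does not depend on how libraries are scaled. Barhl1 per Barhl2, as a ratio of per-length levels, was 1.67, 1.73 and 1.7 with shYthdf2 and 2.44, 2.54 and 2.46 with shCtrl. The ratio was lower by nearly the same amount within each replicate, with log2 differences of -0.55, -0.56 and -0.54 for replicates 1, 2 and 4. The groups were far apart for their spread (SD 0.0273 and 0.0328 on the log2 scale, where counting error alone gives 0.0289 to 0.0355), although the two-sided exact permutation test can give no less than its p = 0.1. Replicate 2, which stood apart in the level of Barhl1 in shCtrl, did not stand apart in this ratio. The pair was chosen after its values were seen. No gene of the annotation overlaps either one.

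The promoters of both BarH-like genes and of the NeuroD pair described next are shown because the ratio within each pair did not overlap between the groups. Each run is unbroken, 5′ to 3′ on the gene's strand, from 250 bases before to 50 after the RefSeq start (GRCm38.p6), with E-boxes in capitals. An E-box is the CANNTG motif that bHLH proteins such as Atoh1 and the NeuroD factors bind, and its reverse complement is again CANNTG. The windows are chr2:28916619-28916918 for Barhl1, chr5:106458117-106458416 for Barhl2, chr2:79456587-79456886 for Neurod1 and chr11:98329596-98329895 for Neurod2, all on the minus strand.
Barhl1: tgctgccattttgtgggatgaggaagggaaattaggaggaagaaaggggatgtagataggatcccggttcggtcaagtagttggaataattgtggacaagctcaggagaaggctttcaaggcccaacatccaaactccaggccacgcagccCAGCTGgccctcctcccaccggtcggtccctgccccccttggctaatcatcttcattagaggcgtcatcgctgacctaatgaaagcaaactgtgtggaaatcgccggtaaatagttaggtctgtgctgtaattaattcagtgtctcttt
Barhl2: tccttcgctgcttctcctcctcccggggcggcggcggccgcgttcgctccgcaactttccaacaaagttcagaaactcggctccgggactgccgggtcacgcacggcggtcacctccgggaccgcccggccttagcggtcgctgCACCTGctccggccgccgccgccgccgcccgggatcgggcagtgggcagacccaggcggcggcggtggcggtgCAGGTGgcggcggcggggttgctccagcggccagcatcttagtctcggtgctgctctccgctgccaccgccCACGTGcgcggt
Neurod1: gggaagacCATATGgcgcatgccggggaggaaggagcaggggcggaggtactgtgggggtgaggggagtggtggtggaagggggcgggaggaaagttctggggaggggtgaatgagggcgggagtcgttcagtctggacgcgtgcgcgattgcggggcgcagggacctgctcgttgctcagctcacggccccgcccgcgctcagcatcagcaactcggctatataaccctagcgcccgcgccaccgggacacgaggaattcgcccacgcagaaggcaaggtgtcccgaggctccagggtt
Neurod2: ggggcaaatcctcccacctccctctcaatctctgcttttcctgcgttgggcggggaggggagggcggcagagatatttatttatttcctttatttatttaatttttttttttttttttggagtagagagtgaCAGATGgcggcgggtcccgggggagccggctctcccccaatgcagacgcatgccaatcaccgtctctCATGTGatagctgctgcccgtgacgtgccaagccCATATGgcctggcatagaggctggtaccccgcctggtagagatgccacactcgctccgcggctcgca
The Barhl1 window held 1 E-box, of the form CAGCTG, and that of Neurod1 held 1, while Barhl2 and Neurod2 held 3 each. At least 1 E-box was present in 72.3% of the 32851 windows of this length, and CAGCTG in 16.3% of them, so these matches describe letters and not sites. Of the 10 members, 8 had a window in the table, but those of Nfia and Nfix lie 190791 and 20262 bases from the start of the annotated gene. Atoh1 and Pax6 held 0 E-boxes in their windows.

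Neurod1 (ENSMUSG00000034701, chromosome 2 from 79452521 to 79456751, minus strand), the bHLH factor that moves GCs from division to differentiation and survival, had 15150, 15440 and 14806 normalized counts with shYthdf2 (replicates 1, 2 and 4) and 19216, 18546 and 18747 with shCtrl. Both groups were tight and the shYthdf2 libraries were lower throughout, at 80.3% of the shCtrl mean (15132 ± 318 against 18836 ± 344, SD, n = 3 each). The fitted log2 fold change was -0.32 (SE 0.09, 95% interval -0.53 to -0.11, adjusted p = 0.124 in edgeR's test), and the differences within replicates 1, 2 and 4 were -0.34, -0.26 and -0.34. It passed the adjusted threshold with DESeq2 (adjusted p = 0.0127), with replicate 2 of shCtrl left out (0.0263) and with that of both groups left out (1.36e-07), with adjusted p from 1.36e-07 to 0.428 among the 14 alternatives. Cerkl, which shares 201 exonic bases with Neurod1 on the same strand, reached 0.854% of its counts at most.

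Neurod2 (ENSMUSG00000038255, chromosome 11 from 98325415 to 98329648, minus strand) encodes a related bHLH factor of postmitotic neurons and had the opposite sign. Its normalized counts were 15589, 16181 and 16354 with shYthdf2 and 12852, 15684 and 12666 with shCtrl (replicates 1, 2 and 4). Replicate 2 of shCtrl reached into the range of the shYthdf2 libraries, so the groups overlapped. The estimate was a log2 fold change of 0.22 (SE 0.12, 95% interval -0.05 to 0.49, adjusted p = 0.326 in edgeR's test), and 0.33 without replicate 2 of shCtrl (adjusted p = 0.0265). Neurod2 per Neurod1 was 0.894, 0.91 and 0.959 with shYthdf2 and 0.581, 0.735 and 0.587 with shCtrl. The ratio did not overlap between the groups (log2 difference 0.55, two-sided exact permutation p = 0.1, the smallest possible). Its log2 difference was 0.31 within replicate 2 against 0.62 and 0.71 within replicates 1 and 4. This pair was also chosen after its values were seen, and its genes had opposite signs, so the choice itself favours a difference in the ratio. Neurod1 made up 59 ± 2.54% of the summed NeuroD level in shCtrl and 50.3 ± 0.822% in shYthdf2 (SD, n = 3 each), with Neurod6 at 2.79% to 4.33% and Neurod4 at 0.031% or less in every library.

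**Figure D3:**
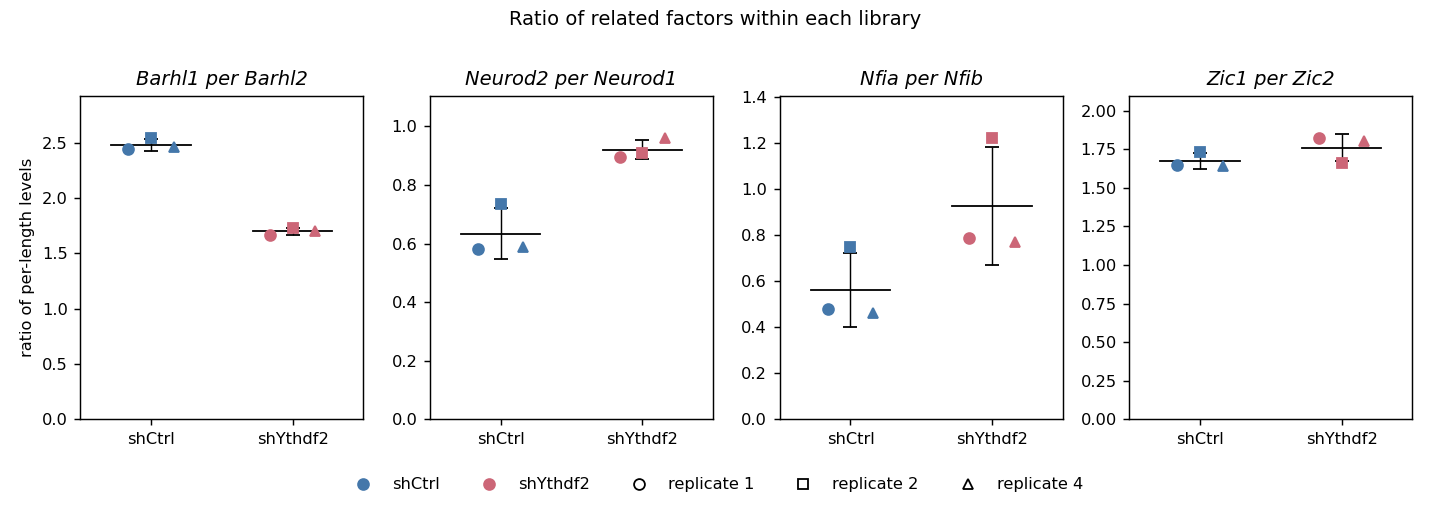
Ratio of the per-length levels of related factors within each library (vertical axes, from 0), with shCtrl in blue, shYthdf2 in red, the symbol giving the replicate, the line the mean and the bar 1 SD. Barhl1 per Barhl2 is near 2.48 in shCtrl and 1.7 in shYthdf2 in all replicates, Neurod2 per Neurod1 and Nfia per Nfib also do not overlap, and Zic1 per Zic2 does.

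The NFI genes had differences of both signs. Nfib (ENSMUSG00000008575, chromosome 4 from 82290173 to 82705750, minus strand) had 7494, 5394 and 7293 normalized counts with shYthdf2 and 9320, 7745 and 9591 with shCtrl (replicates 1, 2 and 4). The highest shYthdf2 library was just under the lowest shCtrl library, and replicate 2 was lowest in both groups. The log2 fold change was -0.40 (SE 0.16, 95% interval -0.76 to -0.04, adjusted p = 0.21 in edgeR's test and 0.0562 with the replicate block), with differences of -0.31, -0.52 and -0.40 within replicates 1, 2 and 4. Gm11266, antisense to Nfib without a shared exonic base, reached 4.05% of the Nfib counts at most.

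Nfix (ENSMUSG00000001911, chromosome 8 from 84699876 to 84800344, minus strand), by level the main NFI gene, had 19634, 17940 and 20148 normalized counts with shYthdf2 and 21931, 22701 and 21193 in the shCtrl libraries. It was lower in every shYthdf2 library, at 87.7% of the shCtrl mean (log2 fold change -0.19, SE 0.10, 95% interval -0.42 to 0.04, adjusted p = 0.332 in edgeR's test). Nfia (ENSMUSG00000028565, chromosome 4 from 97772734 to 98118874, plus strand) had 4298, 4788 and 4076 normalized counts with shYthdf2 and 3249, 4222 and 3210 in the shCtrl libraries. Only replicate 2 of shCtrl overlapped the shYthdf2 libraries, and within each replicate Nfia was higher in shYthdf2, by 0.40, 0.18 and 0.34 on the log2 scale. Its log2 fold change was 0.30 (SE 0.14, 95% interval -0.02 to 0.62, adjusted p = 0.267 in edgeR's test and 0.0745 with the replicate block), and it was 0.44 without replicate 2 of shCtrl (adjusted p = 0.0238).

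Nfia per Nfib was 0.788, 1.22 and 0.768 with shYthdf2 and 0.479, 0.749 and 0.46 with shCtrl (replicates 1, 2 and 4). Replicate 2 was highest in both groups, and the log2 difference within replicates was 0.72, 0.70 and 0.74 (two-sided exact permutation p = 0.1 between the groups, the smallest possible). This pair of opposite signs was chosen after its values were seen, so the choice itself favours a difference in the ratio. Nfia per Nfix did not overlap between the groups either (log2 difference 0.50), while Nfix per Nfib did (0.22). The summed NFI level was 202, 185 and 204 with shYthdf2 and 223, 229 and 217 in the shCtrl libraries. Of that sum, Nfia was 10.9 ± 1.53% in shYthdf2 and 7.73 ± 1.04% in shCtrl (SD, n = 3 each) without overlap, while Nfix kept 69.9% to 71.2% in every library and Nfic 6.54% to 7.97%. Nfic, the remaining NFI gene, had a log2 fold change of -0.31 (SE 0.10, adjusted p = 0.144 in edgeR's test).

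Zic1 (ENSMUSG00000032368, chromosome 9 from 91358058 to 91365810, minus strand), a zinc-finger factor of progenitors and GCs, had 66234, 62359 and 66043 normalized counts with shYthdf2 and 62040, 63173 and 60508 with shCtrl (replicates 1, 2 and 4). The groups overlapped through replicate 2, whose log2 difference was -0.02. Its log2 fold change came to 0.07 (SE 0.10, adjusted p = 0.744 in edgeR's test), with a 95% interval from -0.17 to 0.30. Zic4 runs from the opposite strand across the start of Zic1, shares 60 exonic bases with it and reached 16.6% of its counts. The counting is not stated to use strand, so reads on those bases cannot be assigned.

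Zic2 (ENSMUSG00000061524, chromosome 14 from 122475435 to 122479852, plus strand) had 18393, 18957 and 18603 normalized counts with shYthdf2 and 19051, 18421 and 18648 with shCtrl. The groups lay on top of each other, with means of 18651 ± 285 and 18707 ± 319 (SD, n = 3 each), and the 95% interval of the log2 difference was -0.21 to 0.21. The sign of so small a difference was not fixed, since library size alone as the scale turned it to 0.03. Zic1 per Zic2 was 1.82, 1.66 and 1.8 with shYthdf2 and 1.65, 1.73 and 1.64 in the shCtrl libraries, which overlapped (log2 difference 0.07, two-sided exact permutation p = 0.2). Zic4 per Zic1 overlapped as well (log2 difference 0.10). Zic1 made up 55.5% to 57.8% and Zic2 31.7% to 33.8% of the summed ZIC level in every library, with overlap between the groups.

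Pax6 (ENSMUSG00000027168, chromosome 2 from 105668900 to 105697364, plus strand), a paired-domain and homeodomain factor of GC progenitors and GCs, had 11213, 8776 and 11645 normalized counts with shYthdf2 and 11747, 9653 and 11797 with shCtrl (replicates 1, 2 and 4). Replicate 2 was lowest in both groups and the groups overlapped. The fitted log2 fold change was -0.07 (SE 0.14, 95% interval -0.41 to 0.27, adjusted p = 0.822 in edgeR's test), with -0.07, -0.14 and -0.02 within replicates 1, 2 and 4. The antisense gene Pax6os1 had 1.11% of its counts at most and no shared exonic base.

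**Figure D4:**
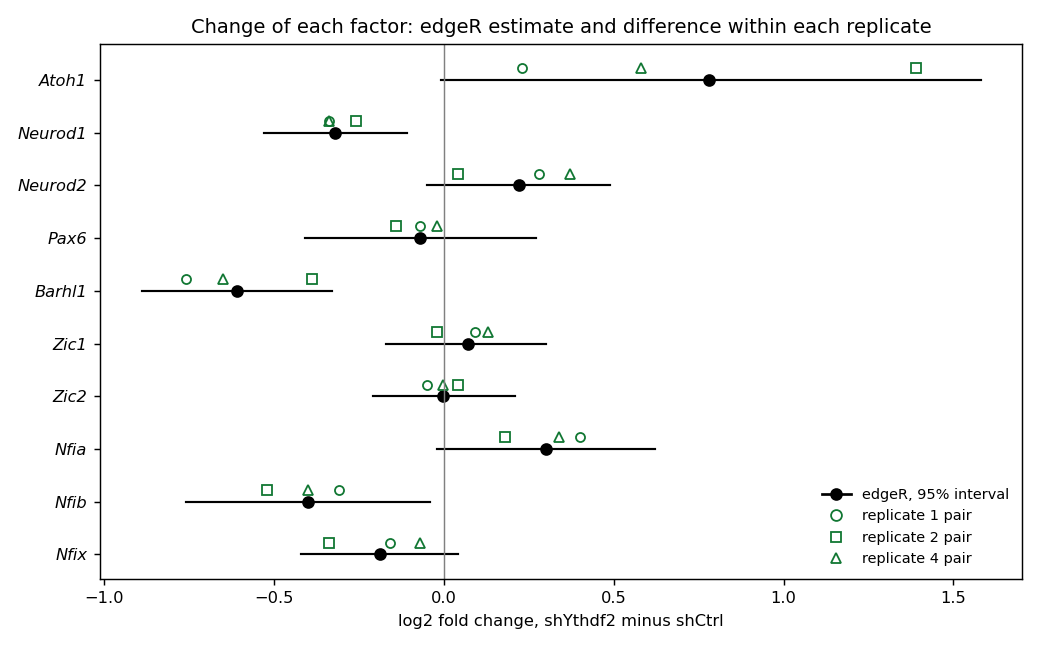
Log2 fold change of each factor, shYthdf2 minus shCtrl (horizontal axis), as the edgeR estimate with its 95% interval (black) and as the difference between the libraries of replicates 1, 2 and 4 (green). The intervals of Barhl1 (-0.89 to -0.33), Neurod1 (-0.53 to -0.11) and Nfib (-0.76 to -0.04) exclude 0, before adjustment over all genes, and those of Pax6, Zic1 and Zic2 are centred near it.

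Without replicate 2 of both groups, 7 of the 10 members passed the adjusted threshold, and so did 52.7% of the 17422 genes tested in those 4 libraries (27.0% lower and 25.8% higher). Neurod1, Barhl1, Nfib and Nfix were then lower and Neurod2, Nfia and Zic1 higher in shYthdf2, with log2 fold changes of -0.71 for Barhl1, -0.36 for Nfib, 0.32 for Neurod2, 0.37 for Nfia and 0.11 for Zic1. The remaining libraries of each group are the close replicates 1 and 4, which set the spread in that fit. Without replicate 2 of shCtrl alone, 4 members passed, Neurod1 and Barhl1 lower and Neurod2 and Nfia higher, against 18.3% of all genes (8.84% lower and 9.42% higher).

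A list of 32 further lineage transcription factors was read beside the members, and 28 passed the filter. None passed the adjusted threshold in edgeR's test (0 of 28), with 2 higher and 5 lower at a raw p below 0.05, beside the 20.1% of all genes. limma-voom also called 0 and DESeq2 called 4, 1 higher and 3 lower, against 7.67% of all genes with DESeq2. The list's median log2 fold change was -0.01. With the replicate block 2 passed, against 1.35% of all genes. Without replicate 2 of shCtrl 9 passed (3 higher and 6 lower), and without replicate 2 of both groups 23 did (8 higher and 15 lower), where 18.3% and 52.7% of all genes passed. Mef2d, an activity-responsive MADS-box factor, had 4419, 4237 and 4530 normalized counts with shYthdf2 and 10316, 6632 and 10260 with shCtrl in replicates 1, 2 and 4 (log2 fold change -1.05, SE 0.18, adjusted p = 0.0527 in edgeR's test and 0.0452 with the block). Myt1l, a zinc-finger factor that represses non-neuronal genes in neurons, had 2938, 3432 and 2968 with shYthdf2 and 1191, 1857 and 1264 in the shCtrl libraries (log2 fold change 1.11, SE 0.18, adjusted p = 0.0522 and 0.044 with the block). Both differences were larger than those of the members, and in both genes replicate 2 of shCtrl lay nearest the shYthdf2 libraries. Bcl11a, a zinc-finger repressor, had a log2 fold change of -1.25 (SE 0.32, adjusted p = 0.106 in edgeR's test) at 35.5 to 132 normalized counts. Gli1, Neurod4, Meis2 and Lhx9 were removed by the filter.

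Genes known to depend on NFI in GCs, a list of 5, had 0 past the adjusted threshold in edgeR's test, limma-voom and DESeq2. Of all genes, these tests called 0.604%, 0.139% and 7.67%. At a raw p below 0.05 in edgeR's test 1 was higher and 1 lower, against 9.50% higher and 10.6% lower of all genes. Cntn2 (Tag-1), an axonal adhesion molecule of young GCs, had 19402, 13472 and 19674 normalized counts with shYthdf2 and 25036, 23511 and 24572 in the shCtrl libraries (log2 fold change -0.48, SE 0.16, adjusted p = 0.158 in edgeR's test). Its groups did not overlap. Neither did those of Cdh2, a cadherin gene and the 1 that was higher at a raw p below 0.05. The log2 fold change of Cdh2 was 0.22 (SE 0.09, adjusted p = 0.217 in edgeR's test). Estimates were higher for 3 of the 5 genes and lower for 2, with a median log2 fold change of 0.22. Gabra6, a GABA-A receptor subunit of mature GCs, had 516, 1354 and 550 with shYthdf2 and 431, 1206 and 407 in the shCtrl libraries, and Wnt7a, a Wnt ligand of GCs, had 168, 364 and 181 and 46, 276 and 57. In both genes replicate 2 was highest in each group. The log2 fold changes of Gabra6 and Wnt7a were 0.25 and 0.91 (adjusted p = 0.828 and 0.502 in edgeR's test).

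The lists of GC stages were read for what the cultures held. For comparison, edgeR's test called 0.604% of all genes, limma-voom 0.139% and DESeq2 7.67%. A raw p below 0.05 in edgeR's test was reached by 20.1% of all genes (9.50% higher and 10.6% lower). Of 12 proliferation genes, 11 passed the filter, 0 were called in edgeR's test, DESeq2 or limma-voom, 0 had a raw p below 0.05 in edgeR's test, and their summed level was 24.3 to 28.3 RPKM in shYthdf2 and 25.2 to 32.7 in shCtrl. Of the 11, 8 had estimates above 0 and 3 below (median log2 fold change 0.19), with 0.76 for Top2a, -0.48 for Mcm2 and -0.36 for Mcm6. The 10 genes of early postmitotic GCs summed to 1533 to 1750 in shYthdf2 and 1558 to 1968 in shCtrl, with 0 called in edgeR's test or limma-voom, and 2 higher and 2 lower at a raw p below 0.05 in edgeR's test. The log2 fold change was -0.43 for Tubb3 (adjusted p = 0.195) and 0.61 for Nrcam (adjusted p = 0.0621). DESeq2 called 2 of these genes, both higher, Nrcam (adjusted p = 0.00069) and Astn1 (adjusted p = 0.0236). The 12 genes of mature GCs summed to 786 to 925 in shYthdf2 and 810 to 1143 in shCtrl, with 0 called in edgeR's test or limma-voom, and 1 lower at a raw p below 0.05. The log2 fold change was -0.64 for Cbln1 (adjusted p = 0.14 in edgeR's test and 0.0327 in DESeq2, its 1 call of the list), 0.81 for Cbln3 and 0.61 for Calb2. The label of granule cells was thus matched by abundant GC genes, mostly postmitotic ones, and the members summed to 1799 to 1852 in shYthdf2 and 1880 to 1926 in shCtrl.

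Markers of other cell types were present, and their levels varied between libraries. The 12 genes of astrocytes and Bergmann glia summed to 260, 223 and 261 RPKM with shYthdf2 (replicates 1, 2 and 4) and to 117, 263 and 118 with shCtrl. The 8 oligodendrocyte lineage genes summed to 120, 150 and 124 and to 45.7, 157 and 43.9, the 7 microglia genes to 35.9, 12.5 and 40.6 and to 6.36, 25.8 and 5.89, and the 8 genes of vascular cells and fibroblasts to 24.3, 67.9 and 25.3 and to 18.1, 48.3 and 17.3. In each of these lists replicates 1 and 4 of shCtrl were the lowest libraries. GABAergic interneuron genes (9) summed to 103 to 124 in shYthdf2 and 91.4 to 99.8 in shCtrl, unipolar brush cell genes (6) to 76.3 to 80.9 and 86.6 to 98, and Purkinje cell genes (7) to 6.58 to 9.73 and 8.23 to 8.65. No marker was at 0 in every library, and Ptf1a, P2ry12 and Cldn5 stayed under 10 counts in each.

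Of the 53 tested genes in these 7 lists, 0 passed the adjusted threshold in edgeR's test and 0 in limma-voom, against 0.604% and 0.139% of all genes. DESeq2 called 6 of them and the replicate block 2, against 7.67% and 1.35% of all genes. At a raw p below 0.05 in edgeR's test 6 were higher and 2 lower, against 9.50% higher and 10.6% lower of all genes. Estimates were higher with shYthdf2 for 42 of the 53 and lower for 11. They were higher for all tested genes of the oligodendrocyte (8), microglia (6) and vascular (7) lists and for 10 of 12 astrocyte genes, and of both signs in the other lists. Without replicate 2 of shCtrl 25 genes of these lists passed (21 higher and 4 lower), against 18.3% of all genes. Among them were 8 oligodendrocyte genes, all higher. Without replicate 2 of both groups 40 passed (34 higher and 6 lower), against 52.7% of all genes. Eomes, a T-box factor of unipolar brush cells, had 359, 640 and 325 normalized counts with shYthdf2 and 1747, 1172 and 1696 with shCtrl in replicates 1, 2 and 4 (log2 fold change -1.80, SE 0.29, adjusted p = 0.0502 in edgeR's test). Slc1a2, the astroglial glutamate transporter GLT-1, had 931, 1019 and 875 with shYthdf2 and 3024, 1571 and 3072 in the shCtrl libraries (log2 fold change -1.44, SE 0.25, adjusted p = 0.0552). Fabp7 and Aldoc of the same glial list had log2 fold changes of 0.87 and 1.06 with adjusted p of 0.266 and 0.249 in edgeR's test. Gad1, which makes GABA, had a log2 fold change of 0.49 (SE 0.11, adjusted p = 0.0876, and 0.045 with the block), and Vtn of the vascular list, the other gene called with the block, also had an adjusted p of 0.045 there.

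Other genes named by size had log2 fold changes of 0.77 and 0.72 (Pdgfra and Cspg4 of the oligodendrocyte lineage), 0.41 and 0.50 (Plcb4 and Tbr1), -0.45, 0.36 and -0.01 (Calb1, Car8 and Itpr1 of Purkinje cells), 0.44 and -0.62 (Gad2 and Slc6a5) and 0.82, 0.64 and 1.06 (Kdr, Pdgfrb and Vtn of vascular cells), none past the adjusted threshold in edgeR's test. Tbr1 was at -0.13 without replicate 2. The microglial genes Aif1, C1qa and C1qb had log2 fold changes of 1.06, 1.47 and 1.10 (adjusted p = 0.436, 0.283 and 0.43 in edgeR's test). They turned sign within replicate 2, where the differences were -1.46, -1.01 and -1.36, and without replicate 2 of both groups they were 2.45, 2.89 and 2.62. In bulk RNA, fewer cells of a type and less RNA per cell cannot be told apart. The NFI genes, Pax6 and the ZIC genes are shared with some of these cell types, and the part of these markers in the members' values was not tested.

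**Figure D5:**
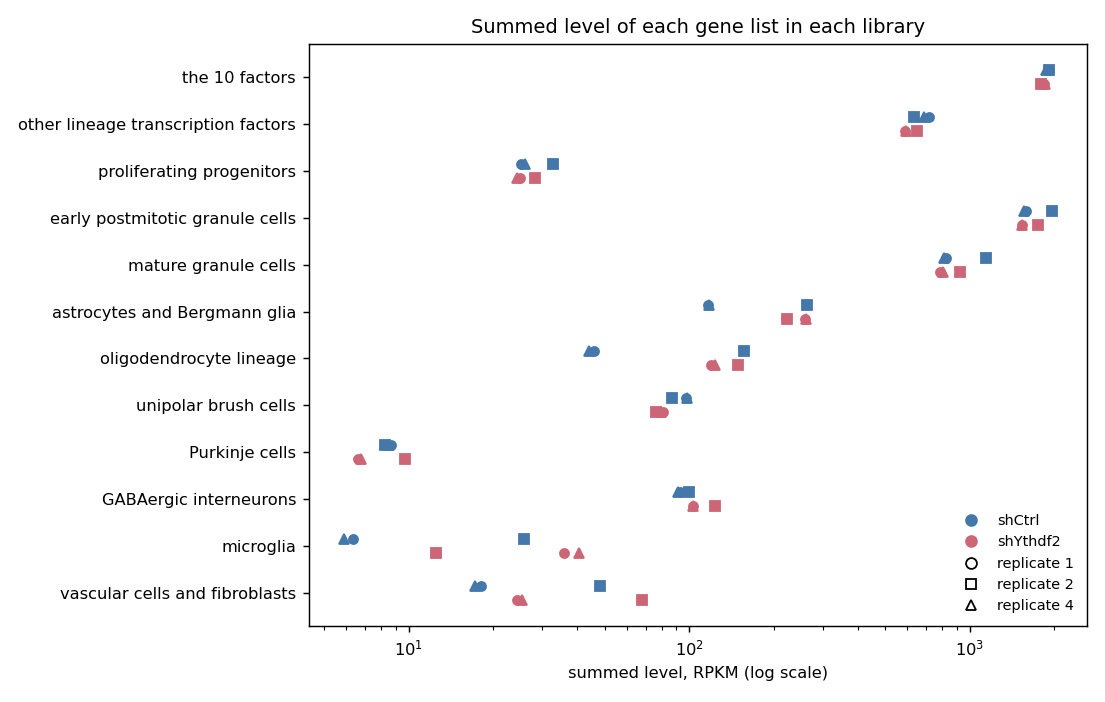
Summed level of each gene list (RPKM, log axis) in the 6 libraries, with shCtrl in blue, shYthdf2 in red and the symbol giving the replicate. The 10 factors sum to 1799 to 1852 in shYthdf2 and 1880 to 1926 in shCtrl. Over all libraries astrocyte genes range from 117 to 263 and microglia genes from 5.89 to 40.6.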

How the data were processed

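RNA-seq of cultured mouse GCs was deposited as 1 table of counts per gene for 6 libraries, 3 per group, and groups were taken from the library names, against the titles and genotype labels. The authors made these raw counts, which are not normalized. The labels name a TruSeq kit, and the submitters' processing notes name mm9 and Bowtie 0.12.2, while the study's methods name an NEBNext kit, GRCm38, HISAT and HTSeq. A strand setting is not given in the sources used here. Of 53421 rows, 52403 matched GENCODE M21 (GRCm38), which gave positions and exon lengths, and 785 rows outside it held 0.303% of counts.

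The members and lists were chosen with earlier results of these data known, and ratios and family shares after their values were seen. Counts were tested with edgeR 4.0.16 (quasi-likelihood, TMM, filterByExpr with a minimum count of 10 and total of 15, Benjamini-Hochberg adjustment over all genes, threshold 0.05), after a check on simulated data. Normalized counts are counts at a common library size of 18917881. Single values were compared by exact two-sided permutation tests. Alternatives were DESeq2 1.42.0, limma 3.58.1 (voom), RLE size factors, library size alone, other filters, a replicate block and left-out libraries. Named besides the members were Ythdf2, the 3 genes of each list with the largest absolute log2 fold change (mean normalized counts of 50 or more), and genes overlapping a member with at least 5% of its counts. Other names (Barhl2, Nfic, Neurod6, Astn1, Cdh2 and the smaller overlapping genes) were chosen after their values were seen. Some genes that these rules name are not reported here.

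Deviations from the group means correlated between same-numbered libraries of the 2 groups (r across genes 0.263, 0.367 and 0.281 for replicates 1, 2 and 4). Within a group these deviations are not independent, and replicate 2 stood apart in both groups. The correlations therefore cannot show that replicate 1 pairs with 1 and 4 with 4. Replicates 1 and 4 of shYthdf2 were both nearer replicate 4 of shCtrl (chi-square per degree of freedom 47.1 and 43.7) than replicate 1 (53.3 and 52). The block and the differences within replicates take the pairing from the numbers alone. Libraries held 17246821 to 21546595 counts, which leaves counting error small for every member but Atoh1.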

Additional observations from a re-analysis of the deposited data

How the results depend on the processing

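Of the 140 values of single members under 14 alternatives, 121 kept their direction and side of the threshold, 14 passed it and 5 turned sign. DESeq2 gave Atoh1 no adjusted p, and that value is counted among the 121 for its direction alone. The number of members past the threshold was 0 with edgeR, 2 with DESeq2, 1 without the filter on low counts, 0 to 4 when 1 library was left out (4 if that was replicate 2 of shCtrl) and 7 if replicate 2 of both groups was. The number of genes past it was 104 with edgeR, 1320 with DESeq2, 24 with limma-voom and 232 with the replicate block, each of 17214 tested. It was 639 of 32277 without the filter, and 0 to 3239 when 1 library was left out. Leaving out any 1 of the replicates 1 and 4 gave 0. Leaving out replicate 2 of shYthdf2 gave 829 of 17654, replicate 2 of shCtrl 3239 of 17734 and both replicate 2 libraries 9186 of 17422. The replicate block changed no call among the members. The cause of these shifts was not tested. The log2 fold change of Ythdf2 was -0.58 with DESeq2 (adjusted p = 0.0392) and -0.32 without replicate 2 (adjusted p = 0.00124), and over the left-out libraries it ran from -0.66 to -0.32.

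The members' median log2 fold change of -0.04 became -0.0021 with library size alone, and -0.09 to 0.01 when 1 library was left out. Zic2 turned to 0.03 with library size alone, 0.01 with at least 10 counts in every library, 0.01 and 0.0031 with replicate 1 of shYthdf2 or of shCtrl left out (left-out libraries: -0.03 to 0.01). Pax6 turned to 0.05 without replicate 2 of shYthdf2 (left-out libraries: -0.16 to 0.05). Zic1 per Zic2 had a log2 difference of 0.14 without replicate 2, against 0.07. Depth limits Atoh1, with 13 to 35 raw counts per library.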

Other observations

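The sequence GGACT, one form of the motif at which m6A is placed, was counted in the longest protein-coding transcript of each gene (GENCODE M21), as a description of sequence and not of modified sites. Barhl1 held 9 in 3666 bases, or 2.45 per kilobase, more than 95.1% of 13719 tested genes, while Barhl2 held 1 in 2314 bases (0.432 per kilobase, above 13.5%). Among the other members Pax6 had 1.81 per kilobase, Nfix 1.64, Nfib 1.32, Neurod2 1.27, Zic2 1.23, Neurod1 1.1, Atoh1 0.943, Nfia 0.735 and Zic1 0.357. The other relatives counted were Nfic at 1.76 per kilobase, Neurod6 at 0.93 and Zic4 at 0.514. A link between these counts and the changes of the genes was not tested. The median was 1.25 over the members and 1.05 over all of these genes, of which 93.1% held at least 1. The number of m6A marks on these transcripts was not measured here.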
